A study of Mus musculus with 8 samples.

Results

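The genes described here are 9 genes of neurogenesis: the proneural basic helix-loop-helix (bHLH) factors Neurog1, Neurog2, Neurog3, Neurod1 and Neurod4, the Notch ligands Dll1 and Dll3, and the Notch-responsive repressors Hes5 and Hes1. They were chosen by name, with earlier results of these data known, and all 9 had a row among the 36808 genes of the expression table. The question was how far neurogenesis had set in by day 5 in wild-type cells and in cells mutant for Polycomb Repressive Complex 2 (PRC2), the complex that trimethylates lysine 27 of histone H3. Mouse embryonic stem cells (ESCs) were taken through directed differentiation to spinal motor neurons (SMNs), by removing LIF and adding retinoic acid and an agonist of Sonic Hedgehog signaling. RNA was sequenced from ESCs and from cells at day 5, with 1 library for each of 8 conditions, so that no difference given here has a replicate check and no test or p-value is given.

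The wild-type ESCs were E14 (129/Ola background) and a further line, CJ7 (129/S background). The Suz12GT line (129/Ola) carries a gene trap that fuses SUZ12 to β-galactosidase and acts as a hypomorph, the Suz12delta line (C57/BL6) makes a truncated SUZ12, and the Eednull line (BALB/cR1) carries a point mutation in Eed. E14, CJ7, Suz12delta and Eednull libraries were available for ESCs, and E14, Suz12GT, Suz12delta and Eednull libraries for day 5. Each mutant is 1 cell line, and Suz12delta, Eednull and CJ7 each differ from E14 in strain background, so that genotype, line and background cannot be told apart. The ESCs had been grown on irradiated embryonic fibroblasts, and a short plating step was used to remove these when ESCs were collected.

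Proneural bHLH factors pair with E proteins and bind E boxes to start the neuronal program in dividing neural progenitors. A cell that makes more of them also makes more Delta-like ligand, which activates Notch receptors on its neighbors. There the Notch intracellular domain joins the DNA-binding protein RBPJ and turns on Hes genes, whose products repress proneural genes and keep the neighbor a progenitor. In the ventral spinal cord this lateral inhibition lets motor neurons leave a pool of progenitors gradually.

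The sequences just upstream of 4 of the genes are shown because they hold, or lack, the short motifs through which this circuit is wired. The RefSeq table (GRCm38.p6) gave 10 upstream windows of 250 bases for 8 of the 9 genes, all but Hes1, and each was found once by exact match in NCBI build 37, the build of the expression table. The windows were searched on both strands for the E box (CANNTG), the RBPJ core (TGGGAA, or TTCCCA on the other strand) and the N box bound by Hes proteins (CACNAG, or CTNGTG on the other strand). The Hes5 window is shown with the RBPJ core in capitals, the Dll1 window with the E box in capitals and the Neurod4 window with the N box in capitals. The Neurog2 window held none of these motifs and is in lower case throughout. No printed match overlapped one of another motif.
Hes5 (chr4:154334782-154335031, plus strand): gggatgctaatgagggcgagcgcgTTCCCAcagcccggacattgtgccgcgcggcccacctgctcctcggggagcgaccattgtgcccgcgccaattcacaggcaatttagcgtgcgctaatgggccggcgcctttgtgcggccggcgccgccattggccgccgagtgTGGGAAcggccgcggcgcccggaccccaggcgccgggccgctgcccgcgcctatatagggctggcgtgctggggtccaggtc
Dll1 (chr17:15513897-15514146, minus strand): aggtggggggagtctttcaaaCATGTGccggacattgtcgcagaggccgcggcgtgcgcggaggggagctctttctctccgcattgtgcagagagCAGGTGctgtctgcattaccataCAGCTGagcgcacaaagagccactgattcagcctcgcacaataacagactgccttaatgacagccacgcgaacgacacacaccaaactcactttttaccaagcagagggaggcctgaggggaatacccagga
Neurod4 (chr10:129717311-129717560, minus strand): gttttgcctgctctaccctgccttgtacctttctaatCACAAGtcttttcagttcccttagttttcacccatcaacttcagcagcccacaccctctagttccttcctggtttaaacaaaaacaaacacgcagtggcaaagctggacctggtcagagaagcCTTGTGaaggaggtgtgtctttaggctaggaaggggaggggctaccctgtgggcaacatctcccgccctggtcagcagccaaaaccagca
Neurog2 (chr3:127335804-127336053, plus strand): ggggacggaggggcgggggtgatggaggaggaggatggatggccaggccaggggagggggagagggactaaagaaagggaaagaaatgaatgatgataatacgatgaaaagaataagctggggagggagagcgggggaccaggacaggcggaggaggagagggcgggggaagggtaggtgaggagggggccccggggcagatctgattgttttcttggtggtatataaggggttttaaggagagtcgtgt

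Among the 8 genes, the RBPJ core was found only upstream of Hes5, where its matches began 226 and 82 bases before the transcription start. Of 32851 upstream windows of the same length in the RefSeq table, 21.6% held it. The printed Dll1 window held E boxes that began 229, 155 and 132 bases before its start, and a second Dll1 start had 1. For both Dll1 and Neurod4, the printed start lies outside the annotated gene and the second start inside it. Dll3 had 2, and Hes5, Neurod1 and Neurog3 had 1 each, whereas none was found upstream of Neurog1, Neurog2 or Neurod4. An E box was present in 66.2% of all windows and was present for 5 of the 8 genes. The N box, found only upstream of Neurod4, was present in 36.7% of all windows. The printed Neurod4 window held 2, and the window of the second Neurod4 start held 1. These matches describe letters and not binding.

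RNA levels are in FPKM, fragments scaled by transcript length and library size, so that levels can be compared between genes. How many reads a library had is not known. FPKM summed to between 389165 and 797748 per library. In each library up to 5 genes had a listed 0 although all the other libraries had them at 10 FPKM or above, so that a 0 can be a failed estimate. Suz12 itself was at 6.21 FPKM in Suz12delta ESCs and at 35.7 to 53.1 FPKM in the other ESCs, and at day 5 at 16.2 FPKM in E14, 10.3 in Suz12GT, 11.6 in Suz12delta and 17.6 in Eednull cells. In Suz12delta cells Suz12 was thus higher at day 5 than in ESCs. It was lower at day 5 in E14, at 16.2 against 41.3 FPKM, and in Eednull cells, at 17.6 against 35.7 FPKM. The reason was not tested, and the day 5 values check no label. Differences are log2 ratios of FPKM plus 0.1, taken where 1 or both of the 2 libraries reached 0.1 FPKM, and a gene is said to have risen or fallen where its ratio reached 1 in size, a 2-fold change on that scale. The sample labels say that the CJ7 library was prepared and sequenced with ST20, which by its column name is the library of Eednull ESCs, so that comparisons of CJ7 or Eednull ESCs with E14 ESCs, or of Eednull ESCs with Eednull day 5 cells, may cross batches.

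Neurog1 (ENSMUSG00000048904, chr13:56351866-56353524, minus strand) and Neurog2 (ENSMUSG00000027967, chr3:127336054-127338549, plus strand) encode neurogenins that commit neural progenitors to a neuronal fate. At day 5 Neurog2 was at 20.7 FPKM in E14, 7.89 in Suz12GT, 0.0450 in Suz12delta and 0.0398 in Eednull cells. In ESCs Neurog2 was listed at 0 in E14 and was at 0.0288 FPKM in CJ7, 0.0285 in Suz12delta and 0.115 in Eednull cells. It was thus above 1 FPKM only in the E14 and Suz12GT day 5 libraries. In libraries of whole cultures such as these, fewer cells of a type and less RNA per cell cannot be told apart. Neurog1 followed the same order at day 5, with 11.9 FPKM in E14, 4.43 in Suz12GT, 0.0430 in Suz12delta and 0.00929 in Eednull cells. In ESCs Neurog1 was at 0.0754 FPKM in E14 and listed at 0 in CJ7, against 0.766 in Suz12delta and 0.399 in Eednull cells. Both mutant ESC libraries were therefore above both wild-type ESC libraries for Neurog1, and each mutant line was lower at day 5 than as ESCs.

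Neurog3 (ENSMUSG00000044312, chr10:61595838-61597511, plus strand), known chiefly as the factor that specifies endocrine cells of the pancreas, stayed below 1 FPKM in all 8 libraries. In ESCs it was at 0.153 FPKM in E14, 0.198 in CJ7, 0.0802 in Suz12delta and 0.637 in Eednull cells. At day 5 it was at 0.0327 FPKM in E14, 0.411 in Suz12GT, 0.0388 in Suz12delta and 0.0209 in Eednull cells. The Eednull ESC and Suz12GT day 5 libraries were the highest. Neurog3 lies on the strand opposite to 2010107G23Rik, which was at 2.92 to 7.11 FPKM, and whether reads were counted by strand is not given in the sources used here, so that its low values are uncertain.

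Neurod1 (ENSMUSG00000034701, chr2:79292678-79296908, minus strand) and Neurod4 (ENSMUSG00000048015, chr10:129705209-129717296, minus strand) act after the neurogenins in neuronal differentiation. Neurod4 was at 24.1 FPKM in E14, 15.2 in Suz12GT and 0.0525 in Suz12delta cells at day 5, and was listed at 0 in Eednull cells. Its ESC values were 0.0349 FPKM in E14, 0.0246 in Suz12delta and 0.0380 in Eednull cells, with CJ7 listed at 0. As for Neurog2, the E14 and Suz12GT day 5 libraries were the only ones above 1 FPKM. Neurod1 was at 13.9 FPKM in E14, 11.2 in Suz12GT, 0.227 in Suz12delta and 0.207 in Eednull cells at day 5. Unlike the other proneural genes, Neurod1 was above 1 FPKM in wild-type ESCs, at 1.89 in E14 and 1.16 in CJ7, and was at 0.150 in Suz12delta and 0.885 in Eednull ESCs. Neurod1 overlaps Cerkl, a gene on the same strand that was at 0.0866 to 1.06 FPKM, so that its lowest values are uncertain.

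Dll1 (ENSMUSG00000014773, chr17:15504318-15513836, minus strand) encodes a ligand that activates Notch on adjacent cells. In ESCs Dll1 was at 18.8 FPKM in E14, 4.33 in CJ7, 1.70 in Suz12delta and 4.97 in Eednull cells. At day 5 it was at 28.3 FPKM in E14, 16.5 in Suz12GT, 0.745 in Suz12delta and 1.33 in Eednull cells. Dll1 was thus already well expressed in E14 ESCs, and the 2 wild-type ESC lines differed more than 4-fold. Dll3 (ENSMUSG00000003436, chr7:29076673-29087257, minus strand) encodes a divergent ligand that is held inside the cell and dampens Notch signaling within it. Dll3 was at 33.4 FPKM in E14, 12.7 in Suz12GT, 0.235 in Suz12delta and 0.195 in Eednull cells at day 5, and at 1.81, 2.06, 0.733 and 3.10 FPKM in E14, CJ7, Suz12delta and Eednull ESCs. Unlike Dll1, it was low in both wild-type ESC lines and rose with differentiation.

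Hes5 (ENSMUSG00000048001, chr4:154335032-154336480, plus strand) encodes a repressor that in neural progenitors depends on Notch. At day 5 Hes5 was at 43.2 FPKM in E14, the highest value of any of the 9 genes at day 5, and at 7.55 in Suz12GT, 0.163 in Suz12delta and 0.186 in Eednull cells. In ESCs it was at 0.919 FPKM in E14, 0.403 in CJ7, 0.0466 in Suz12delta and 0.197 in Eednull cells. Ranked among all genes of its library, Hes5 was at percentile 95.3 in E14 and 75.6 in Suz12GT cells at day 5, a measure that no scaling between libraries affects. Hes1 (ENSMUSG00000022528, chr16:30064470-30067882, plus strand) encodes a related repressor that also responds to signals other than Notch and is made in ESCs and many progenitors. Hes1 was at 47.0 FPKM in E14, 28.3 in CJ7, 61.0 in Suz12delta and 40.3 in Eednull ESCs. At day 5 it was at 12 FPKM in E14, 24.2 in Suz12GT, 31.4 in Suz12delta and 30.9 in Eednull cells. It was the only 1 of the 9 genes above 10 FPKM in every library, and E14 day 5, where the other genes except Neurog3 were highest, was its lowest library.

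**Figure D1:**
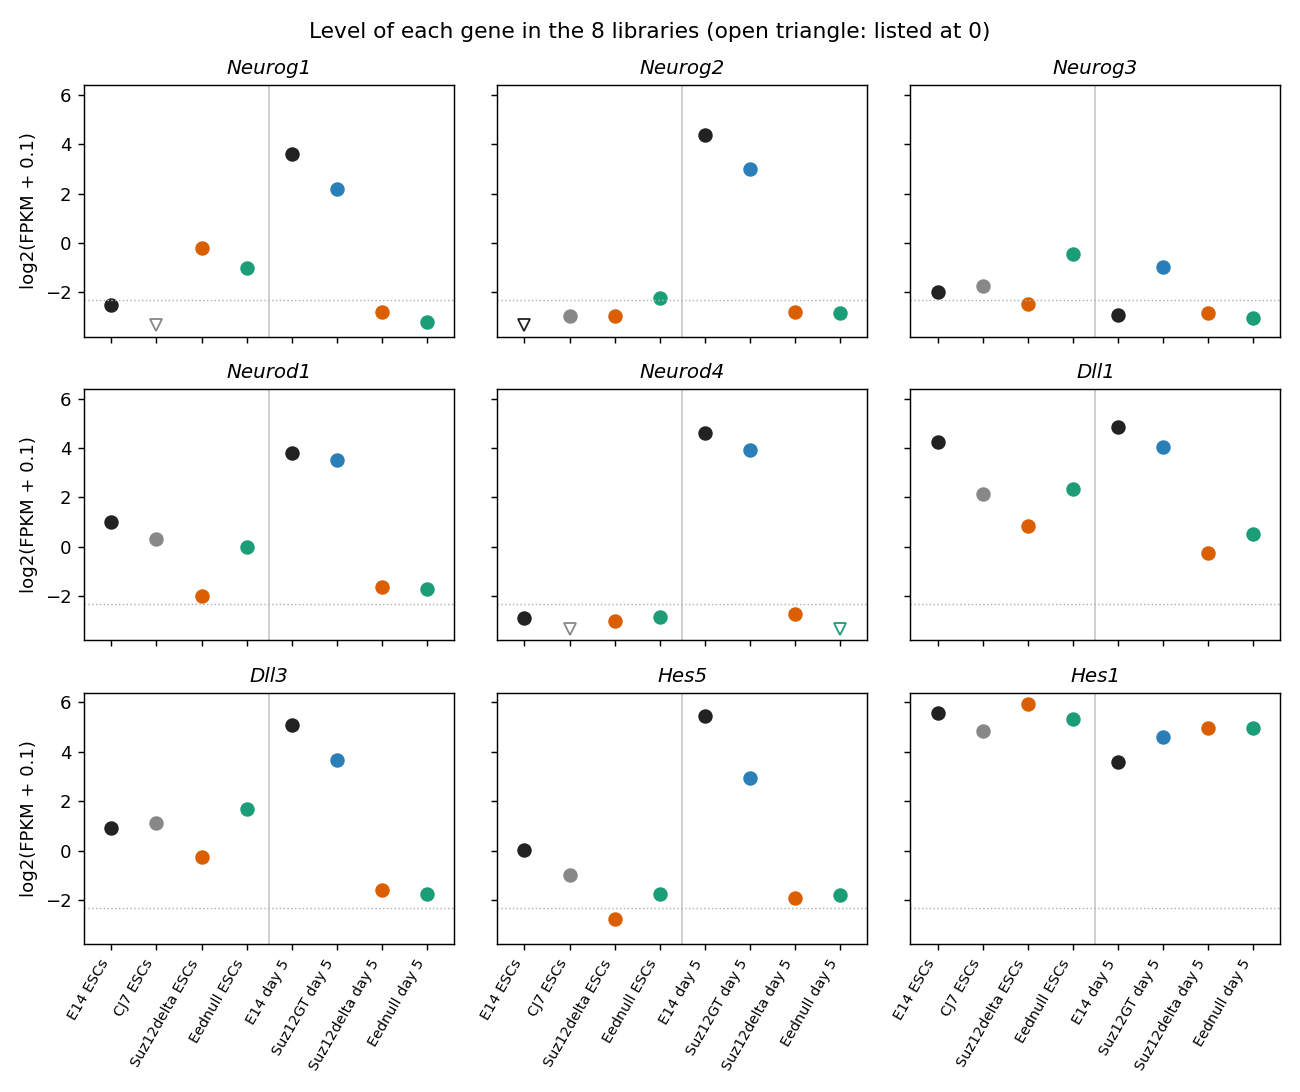
Level of each of the 9 genes (log2 of FPKM plus 0.1, vertical axis) in the 8 libraries (horizontal axis, ESCs to the left of the vertical line and day 5 to its right), with 1 point per library, no error bars since each condition had 1 library, and a dotted line at 0.1 FPKM. Neurog1, Neurog2, Neurod1, Neurod4, Dll3 and Hes5 are highest in E14 day 5 cells and next highest in Suz12GT day 5 cells, whereas Hes1 is lowest in E14 day 5 cells, at 12 FPKM.

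Over wild-type differentiation, 6 of the 9 genes rose and 1 fell. Of all 21563 genes compared, 18.3% rose and 25.8% fell. The log2 ratio of E14 day 5 to E14 ESCs was 7.49 for Neurod4, 6.10 for Neurog1, 5.41 for Hes5, 4.13 for Dll3 and 2.82 for Neurod1. Neurog2 also rose, from a listed 0 against which no fold is given. Hes1 fell by 1.96 on the log2 scale, so that the 2 Hes genes moved in opposite directions. Dll1 had a ratio of 0.59 and Neurog3 one of -0.93, both within 2-fold on that scale. In FPKM, Neurog3 was 4.68 times as high in E14 ESCs as in E14 day 5 cells, at 0.153 against 0.0327. Its ratio was -1.93 at a pseudocount of 0.01. The median over the 8 genes above 0 in both libraries was 3.48, beside -0.20 over all genes.

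In Suz12delta cells none of the 6 genes that reached 0.1 FPKM rose between ESCs and day 5, and 3 fell, whereas 26.9% of all 22681 genes compared rose and 12.6% fell. Neurog1 fell by 2.60, Dll3 fell by 1.31 and Dll1 fell by 1.09 on the log2 scale. Hes5 had a ratio of 0.84, Neurod1 one of 0.39 and Hes1 one of -0.95, and Neurog2, Neurog3 and Neurod4 were below 0.1 FPKM at both times. With a pseudocount of 1 none of the 3 falls reached 2-fold, at -0.76 for Neurog1, -0.49 for Dll3 and -0.63 for Dll1. The median of the 6 genes was -1.02, beside 0.43 over all genes. That general shift depended on how the libraries were scaled. Of all genes past 2-fold, 68.1% were higher at day 5 as deposited, against 46.5% after scaling by the median ratio and 50.7% after scaling to the same 75th percentile, and the median over all genes went to -0.03 and 0.06. With these scalings Hes1 also passed 2-fold, at -1.42 and -1.34.

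In Eednull cells none of 8 genes rose between ESCs and day 5 and 5 fell, where 18.4% of 24638 genes rose and 24.8% fell. Dll3 fell by 3.44, Neurog3 fell by 2.61, Neurog1 fell by 2.19, Dll1 fell by 1.82 and Neurod1 fell by 1.68 on the log2 scale. Hes5 had a ratio of -0.05, Hes1 one of -0.38 and Neurog2 one of -0.62. With a pseudocount of 1 the falls of Neurog1, Neurog3 and Neurod1, at -0.47, -0.68 and -0.64, were within 2-fold. The median was -1.75, beside -0.08 over all genes. The Suz12delta and Eednull lines thus both ended with lower Neurog1, Dll1 and Dll3 than they had as ESCs. Hes5 was below 0.2 FPKM at both times in both lines, where the pseudocount weighs on its ratio. In Suz12delta cells it was 3.5 times its ESC value in FPKM, with a ratio of 1.61 at a pseudocount of 0.01.

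At day 5 the Suz12GT library held a graded reduction of most of these genes relative to E14. Hes5 was at 17.5% of its E14 value, Neurog1 at 37.1%, Neurog2 at 38.1%, Dll3 at 38.2%, Dll1 at 58.4%, Neurod4 at 62.9% and Neurod1 at 80.7%. By the 2-fold rule 4 of 9 genes fell, where 4.4% of 20840 genes did. Their log2 ratios were -2.50 for Hes5, -1.41 for Neurog1, -1.38 for Neurog2 and -1.38 for Dll3, whereas Dll1 was at -0.77, Neurod4 at -0.66 and Neurod1 at -0.31. Neurog1, Neurog2, Dll3 and Hes5 were therefore reduced by more than 2-fold and the NeuroD genes by less. Hes1 rose by 1.01 and Neurog3 by 1.95, where 16.8% of all genes rose. The rise of Hes1 lay at the threshold and was 0.93 and 0.94 under the 2 scalings, and that of Neurog3 was from 0.0327 to 0.411 FPKM and was 0.45 with a pseudocount of 1. The median of the 9 genes was -0.77, beside 0.13 over all genes. E14 and Suz12GT share the 129/Ola background.

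In Suz12delta cells at day 5, 7 of 8 genes fell relative to E14 day 5 cells and Hes1 rose, where 9.52% of 22069 genes fell and 26.6% rose. The 7 genes stood at 0.218% to 2.63% of their E14 values. On the log2 scale Hes5 fell by 7.36, Neurod4 fell by 7.31, Neurog2 fell by 7.16, Dll3 fell by 6.64, Neurog1 fell by 6.39, Neurod1 fell by 5.42 and Dll1 fell by 5.07. Hes1 rose by 1.38, to 262% of its E14 value. Neurog3 was below 0.1 FPKM in both libraries. The median of the 8 genes was -6.52, beside 0.26 over all genes.

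Eednull cells at day 5 also had 7 of 8 genes lower and Hes1 higher than E14, where 11.3% of 21442 genes fell and 21.6% rose. Hes5 fell by 7.24, Neurog2 fell by 7.22, Dll3 fell by 6.83, Neurog1 fell by 6.78, Neurod1 fell by 5.51 and Dll1 fell by 4.31 on the log2 scale. Neurod4, the seventh, was listed at 0 in Eednull cells against 24.1 FPKM in E14. Hes1 rose by 1.36, to 257% of its E14 value. The median over the 7 genes above 0 in both libraries was -6.78, beside 0.08 over all genes. The comparisons of Suz12GT, Suz12delta and Eednull cells share the E14 day 5 library, so that a high value there would enter all of them. Set against Suz12delta day 5 cells instead, Suz12GT day 5 cells had 103 times the FPKM of Neurog1 and 175 times that of Neurog2. They had 49.4 times that of Neurod1. The Suz12delta values of these genes were 0.0430, 0.0450 and 0.227 FPKM, so that the folds show size only roughly.

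In Suz12delta ESCs 1 of 7 genes was higher than in E14 ESCs and 4 were lower, where 18% of 21980 genes were higher and 22.8% lower. Neurog1 was higher by 2.30 on the log2 scale. Dll1 had a log2 ratio of -3.39, Neurod1 -2.99, Hes5 -2.80 and Dll3 -1.19. Hes1 and Neurog3 were within 2-fold, at 0.37 and -0.49. The median was -1.19, beside -0.28 over all genes, and scaling moved the latter to 0.06 or 0.07 and the share of higher genes among those past 2-fold from 44.1% to 61.9% or 62.7%. Under these scalings the ratio of Dll3 was -0.88 or -0.86, within 2-fold, and with a pseudocount of 1 those of Neurog1 and Hes5 were 0.72 and -0.87.

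In Eednull ESCs 3 of 8 genes were higher than in E14 ESCs and 3 were lower, where 22.4% of 24280 genes were higher and 11.9% lower. The 3 higher genes were the neurogenins. Neurog1 had a log2 ratio of 1.51 and Neurog3 one of 1.54, and Neurog2, at 0.115 FPKM, was counted against a listed 0. Dll1 had a ratio of -1.89, Hes5 -1.78 and Neurod1 -1.01, and Dll3 and Hes1 were within 2-fold, at 0.75 and -0.22. The median over the 7 genes above 0 in both was -0.22, beside 0.04 over all genes. With a pseudocount of 1 no neurogenin was past 2-fold, with Neurog1 at 0.38, and under the 2 scalings Neurod1 was at -0.86 and -0.91.

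CJ7 and E14 ESCs are both wild type but differ in strain background. CJ7 was prepared and sequenced with ST20, so that CJ7 against E14 may also cross batches, while Eednull against CJ7 ESCs would lie within 1 batch. CJ7 ESCs had none of 6 genes higher than E14 ESCs and 2 lower, where 15.7% of 23141 genes were higher and 14.7% lower. Dll1 had a log2 ratio of -2.09 and Hes5 one of -1.02, which was -0.83 under both scalings. Neurod1 was at -0.66, Hes1 at -0.73, Dll3 at 0.18 and Neurog3 at 0.24. The median of the 6 genes was -0.70, beside -0.12 over all genes. Against CJ7 ESCs, the ratio of Dll1 in Eednull ESCs was 0.19 and that of Hes5 -0.76, both within 2-fold on that scale. In FPKM, Hes5 was 2.05 times as high in CJ7 as in Eednull ESCs. The Neurog1 value of both mutant ESC libraries exceeded the value of both wild-type lines.

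**Figure D2:**
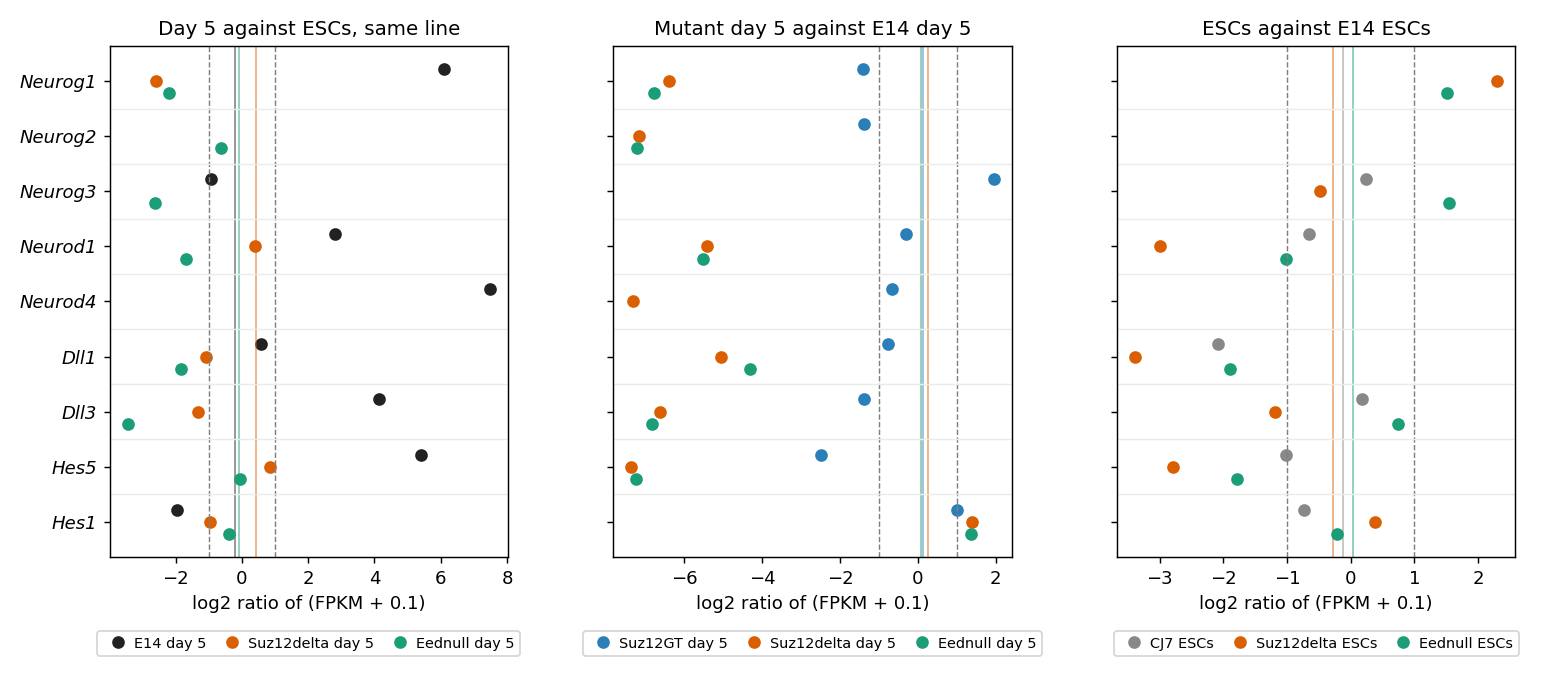
Log2 ratio of FPKM plus 0.1 (horizontal axis) for each gene (vertical axis) in day 5 cells against ESCs of the same line, in mutant against E14 day 5 cells, and in ESCs against E14 ESCs. Each point is 1 pair of libraries, dashed lines mark a 2-fold change, colored lines mark the median over all genes of each comparison, and genes listed at 0 in either library or below 0.1 FPKM in both are left out. The 6 Suz12delta points other than Hes1 and Dll1 in the middle panel lie at -5.42 or lower, and the Suz12GT points of the same genes between -2.50 and -0.31.

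Ratios of genes within a library do not depend on scaling between libraries. Hes5 was at 3.60 times the FPKM of Hes1 in E14 day 5 cells and at 0.312 times in Suz12GT day 5 cells. In Suz12delta and Eednull day 5 cells it was at 0.00519 and 0.00603 times, below the 0.0195 of E14 ESCs and the 0.0143 of CJ7 ESCs. Suz12delta and Eednull ESCs were at 0.000764 and 0.00488. Hes5 therefore exceeded Hes1 in E14 day 5 cells and in no other library, and the order of the genes was reversed in Suz12GT cells.

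The ratio of Dll3 to Dll1 was 0.0963 in E14 ESCs and 1.18 in E14 day 5 cells, and was 0.771 in Suz12GT, 0.316 in Suz12delta and 0.146 in Eednull day 5 cells. In the other ESCs it was 0.476 in CJ7, 0.431 in Suz12delta and 0.624 in Eednull cells. Dll3 thus exceeded Dll1 only in E14 day 5 cells, and E14 ESCs, where Dll1 was high, stood below the other ESC libraries. Neurog2 was at 1.74 times Neurog1 in E14 and 1.78 times in Suz12GT day 5 cells, so that the neurogenins kept their proportion while both were lower. Neurod4 was at 1.16 times Neurog2 in E14 and at 1.92 times in Suz12GT day 5 cells, and Neurod1 at 0.673 and 1.42 times. Relative to Neurog2, both NeuroD genes were higher in Suz12GT than in E14 cells.

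**Figure D3:**
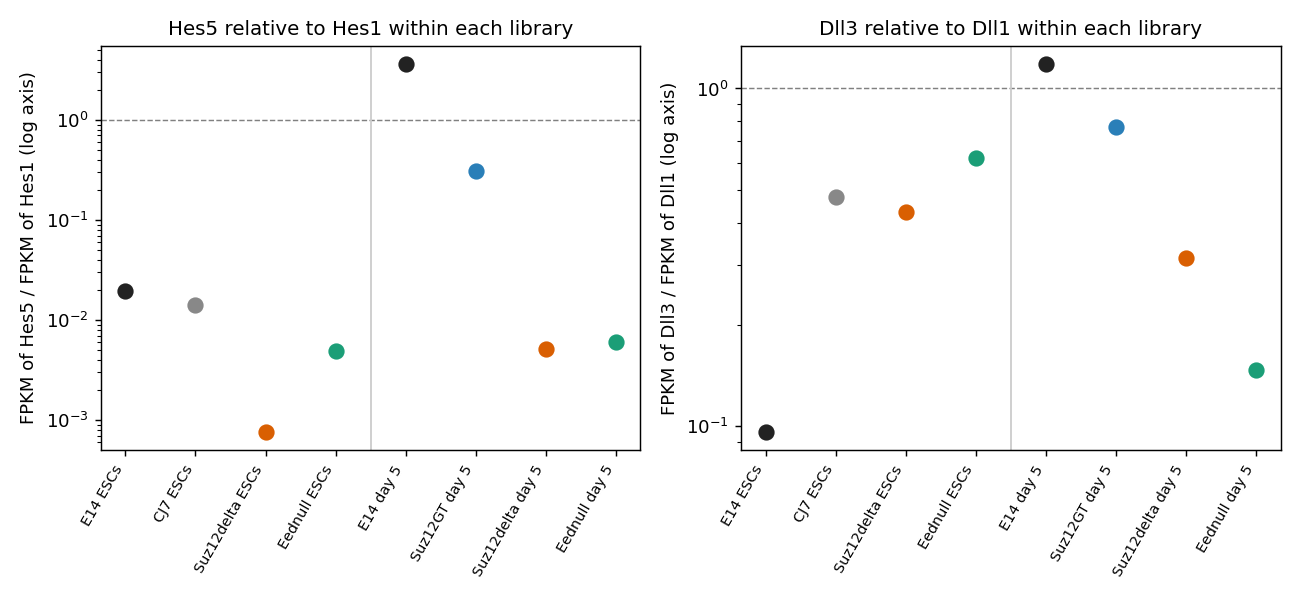
FPKM of Hes5 divided by that of Hes1, and of Dll3 divided by that of Dll1 (vertical log axes), within each of the 8 libraries (horizontal axes), with 1 point per library and a dashed line where both genes are equal. The only points above the dashed lines are those of E14 day 5 cells, at 3.60 and 1.18.

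Genes that act with these factors are given from lists chosen by function. Their counts stand beside the shares of all genes, which over wild-type differentiation were 18.3% risen and 25.8% fallen, and against E14 day 5 cells 16.8% risen and 4.4% fallen in Suz12GT, 26.6% and 9.52% in Suz12delta, and 21.6% and 11.3% in Eednull cells. E proteins are the general dimer partners of proneural factors, and Id proteins block that pairing. Over wild-type differentiation 2 of 7 rose and none fell, and against E14 day 5 cells 1 rose in Suz12GT cells while 2 rose and 1 fell in both Suz12delta and Eednull cells, with medians of -0.19, 0.19 and 0.04. With 7 genes, these counts are near those shares. Tcf3, which encodes the E proteins E12 and E47, was at 83.4 FPKM in E14, 64.9 in Suz12GT, 89.5 in Suz12delta and 85.8 in Eednull day 5 cells. Id4 was at 5.01, 12.4, 0.942 and 0.910 FPKM, and was the gene that fell. Tcf12, another E protein, was at 33.3, 29.2, 37.9 and 44.8 FPKM and Id3 at 20.8, 30.9, 50.9 and 53.4 FPKM. Tcf4, also an E protein, was at 26.6, 21.6, 14.2 and 17.4 FPKM. RNA of these E proteins was thus detected in every line at day 5. Which cells of a culture it came from was not tested.

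Among other neural bHLH factors 8 of 11 rose over wild-type differentiation and 1 fell. Against E14 day 5 cells, 2 of 11 fell in Suz12GT, 7 of 13 fell and 4 rose in Suz12delta, and 6 of 12 fell and 4 rose in Eednull cells. Nhlh2, a factor of newborn neurons, was at 21.7 FPKM in E14, 14.5 in Suz12GT, 0.0913 in Suz12delta and 0.103 in Eednull day 5 cells. Olig2, which specifies motor neuron progenitors, was at 22.1, 10.5, 0.107 and 0.0455 FPKM in these libraries. In ESCs Olig2 was at 0.0436 FPKM in E14, 0.0250 in CJ7, 1.12 in Suz12delta and 5.19 in Eednull cells, the same order of mutant over wild type as for Neurog1.

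Of 10 Notch receptors and other ligands, 5 rose and 2 fell over wild-type differentiation. Against E14 day 5 cells 2 rose and 2 fell in Suz12GT, 1 rose and 4 fell in Suz12delta, and 2 rose and 4 fell in Eednull cells. Notch1, a receptor of neural progenitors, was at 12.8 FPKM in E14 ESCs and at 48.0 in E14, 24.6 in Suz12GT, 13.0 in Suz12delta and 14.4 in Eednull day 5 cells. Dll4, another activating ligand, was at 1.77, 0.670, 0.388 and 0.497 FPKM at day 5. Dlk1, which encodes a Delta-like protein without the motif by which ligands engage Notch, rose instead, from 41.1 FPKM in E14 to 584 in Suz12delta and 233 in Eednull cells, with 51.9 in Suz12GT cells.

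Of 20 genes whose products process Notch or relay its signal, 5 rose and 2 fell over wild-type differentiation, and against E14 day 5 cells 2 rose and 1 fell in Suz12GT and 2 rose and 3 fell in each of Suz12delta and Eednull cells, with medians of 0.08, 0.07 and -0.10. The falls against E14 day 5 cells were near the shares over all genes. Rises in Suz12delta and Eednull cells were below the 26.6% and 21.6% of all genes. Over wild-type differentiation fewer fell than the 25.8% of all genes. Such differences rest on a few genes and were not tested. Rbpj was at 20.2 FPKM in E14, 17.6 in Suz12GT, 15.1 in Suz12delta and 15.3 in Eednull day 5 cells. Ncstn, a subunit of gamma-secretase, was at 36.9, 47.8, 43.3 and 43.8 FPKM. Maml3, a coactivator of Notch, rose in E14 from 0.489 FPKM in ESCs to 10.8 at day 5, and was at 11.3, 6.92 and 8.75 FPKM in Suz12GT, Suz12delta and Eednull day 5 cells. The largest fall in both Suz12delta and Eednull cells was that of Mfng, a glycosyltransferase that modifies Notch, at 36.0 FPKM in E14, 15.2 in Suz12GT, 1.07 in Suz12delta and 0.668 in Eednull day 5 cells.

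Of the other Hes, Hey and Notch feedback genes, 4 of 7 rose and 1 fell over wild-type differentiation. Against E14 day 5 cells 1 of 6 fell in Suz12GT, 4 of 7 fell and 1 rose in Suz12delta, and 4 of 6 fell and 1 rose in Eednull cells. Nrarp, a feedback inhibitor induced by Notch, was at 11.4 FPKM in E14, 7.27 in Suz12GT, 0.758 in Suz12delta and 0.626 in Eednull day 5 cells. Hey1 was at 12, 17.0, 2.59 and 2.39 FPKM and Hey2 at 2.87, 2.68, 1.03 and 0.726 FPKM. Hes6, which opposes Hes1 and promotes neuronal differentiation, was at 35.5, 26.6, 13.4 and 11.7 FPKM, and in ESCs at 4.88 to 15.7 FPKM. In Suz12GT cells Nrarp was at 63.7% and Hey1 at 141% of E14, while Hes5 was at 17.5%.

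Genes known as targets of neurogenins and NeuroD factors rose in 11 of 13 cases over wild-type differentiation, and none fell. In Suz12GT day 5 cells 1 of 13 was higher than in E14 and none was lower, with a median of -0.13. In Suz12delta and Eednull day 5 cells 11 of 13 were lower and none was higher, with medians of -3.0 and -3.34 over the 12 above 0 in both libraries. Dcx, a microtubule protein of migrating neurons, was at 63.7 FPKM in E14, 101 in Suz12GT, 0.554 in Suz12delta and 0.928 in Eednull day 5 cells. Elavl4, an RNA-binding protein of neurons, was at 102, 116, 0.70 and 0.778 FPKM. Myt1, a zinc finger factor, was at 39.2, 42.0, 0.0303 and 0.178 FPKM. In Suz12GT cells Dcx, Elavl4 and Myt1 were at 159%, 114% and 107% of their E14 levels, all within 2-fold. The gene counted as higher was Ebf1, at 332%. Others of the list were below their E14 levels, such as Gadd45g at 54.8% and Ebf2 at 59.9%. Ebf1, Gadd45g and Ebf2 were named after their values were seen. Dcx and Elavl4 are also among the neuron markers below, so that the lists overlap.

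**Figure D4:**
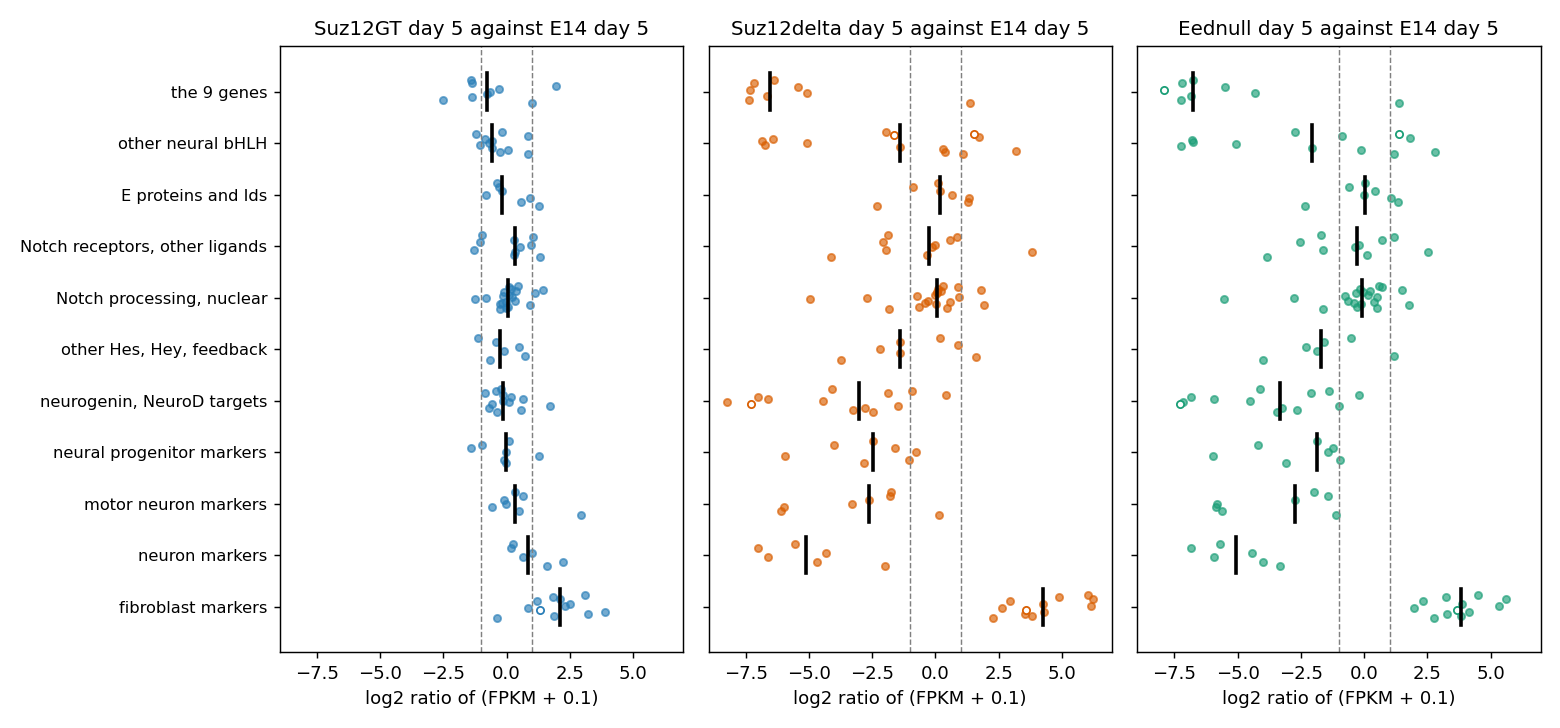
Log2 ratio of FPKM plus 0.1 in each mutant against E14 at day 5 (horizontal axis) for the 9 genes and for lists of related and marker genes (vertical axis). Each point is 1 gene, open points are listed at 0 in 1 of the libraries and give no fold, black bars are medians of the filled points, and dashed lines mark a 2-fold change. The medians of the 9 genes are -0.77 in Suz12GT, -6.52 in Suz12delta and -6.78 in Eednull cells, while those of the Notch processing and nuclear genes are 0.08, 0.07 and -0.10.

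Marker genes of the cell types that the cultures could hold are given beside these results. Of 6 neuron markers compared, 5 rose over wild-type differentiation and none fell. Against E14 day 5 cells 3 of 6 were higher and none lower in Suz12GT cells, with a median of 0.84, whereas 6 of 6 were lower in Suz12delta and in Eednull cells, with medians of -5.11 and -5.07. Their summed level was 305 FPKM in E14, 506 in Suz12GT, 7.76 in Suz12delta and 7.45 in Eednull day 5 cells, with Tubb3 listed at 0 in all 8 libraries. Stmn2, a tubulin-binding protein of neurons, was at 101, 203, 4.92 and 4.59 FPKM in these libraries, but also at 39.9 to 75.7 FPKM in ESCs. Of 7 neural progenitor markers, 1 was higher and 1 lower in Suz12GT cells, and 6 were lower in Suz12delta and in Eednull cells. The lower one in Suz12GT cells was Pax6, at 8.18 FPKM against 21.9 in E14, 7.24 in Suz12delta and 9.35 in Eednull cells. Sox3 was at 17.4 FPKM in E14, 8.91 in Suz12GT, 0.977 in Suz12delta and 0.845 in Eednull cells. Fabp7, a lipid-binding protein of radial glia, was at 27.3 FPKM in E14, 66.7 in Suz12GT, 0.345 in Suz12delta and 0.331 in Eednull day 5 cells. Sox2 was at 20.7, 22.2, 3.70 and 5.63 FPKM and Nkx6-1, a factor of ventral progenitors, at 13.9, 13.8, 1.90 and 1.56 FPKM, while Vim, which fibroblasts also express, was at 399, 372, 194 and 204 FPKM. Of 7 motor neuron markers, 1 was higher in Suz12GT cells, 6 were lower in Suz12delta cells and 7 in Eednull cells. Lhx3, a motor neuron homeobox factor, was at 25.8, 25.3, 2.52 and 0.356 FPKM, Isl1 at 18.1, 22.8, 5.32 and 4.43 FPKM and Lhx4 at 9.41, 6.34, 0.0524 and 0.0628 FPKM. Within the mutant lines 4 of 5 motor neuron markers compared rose between ESCs and day 5 in Suz12delta cells and none fell. In Eednull cells 3 of 5 rose and 1 fell. Over all genes 26.9% rose and 12.6% fell in Suz12delta cells, and 18.4% rose and 24.8% fell in Eednull cells. Lhx4 and Chat were below 0.1 FPKM at both times in both lines and were not compared. Isl1 rose from 0.332 to 5.32 FPKM in Suz12delta and from 1.06 to 4.43 FPKM in Eednull cells, where each proneural gene was below 0.3 FPKM at day 5.

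Fibroblast markers moved the other way. Of 12, 10 were higher in Suz12GT and all 12 in Suz12delta and Eednull day 5 cells than in E14 day 5 cells, and none was lower. Their summed level was 7.03 FPKM in E14, 26.1 in Suz12GT, 143 in Suz12delta and 79.2 in Eednull cells, and Lum was listed at 0 in E14. Col1a1 was at 0.290, 3.21, 25.4 and 8.68 FPKM in these libraries, Col1a2 at 0.821, 3.17, 26.8 and 8.60 FPKM and Thy1 at 0.0797, 0.918, 3.37 and 2.49 FPKM. In ESCs the same 12 genes summed to 97.8 FPKM in E14, 120 in CJ7, 555 in Suz12delta and 284 in Eednull cells. Markers of pluripotent ESCs were low at day 5 in all lines, with a sum of 1.29 FPKM in E14, 11.9 in Suz12GT, 20.0 in Suz12delta and 8.58 in Eednull cells. In ESCs they summed to 1190 FPKM in E14, 1010 in CJ7, 508 in Suz12delta and 962 in Eednull cells. Against E14 ESCs 6 of 8 were lower in Suz12delta and 2 in Eednull ESCs, where 22.8% and 11.9% of all genes were lower. None of the 8 markers was higher in either. Of these, Dppa5a was at 0.447 to 3.85 FPKM and Tdgf1 at 0.174 to 2.94 FPKM at day 5, and Nanog was listed at 0 in E14 and Eednull cells and at 1.21 FPKM in Suz12GT and 0.940 in Suz12delta cells. The part of these cell types in the levels of the 9 genes was not tested.

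The remaining marker lists bear on genes with roles outside neurons. Of 6 endoderm and pancreatic endocrine markers compared, the setting in which Neurog3 is best known, 4 were higher and 2 lower than E14 in Suz12delta and in Eednull day 5 cells, and 6 of 7 were higher in Suz12GT cells. Foxa2 was at 2.96 FPKM in E14, 11.8 in Suz12GT, 12 in Suz12delta and 13.5 in Eednull cells, with Pdx1 at 0.215 FPKM or less and Pax4 listed at 0 in each. Gata4 was listed at 0 in E14 and was at 11.6, 10.3 and 12.1 FPKM in the mutants, and Chga at 7.35 FPKM in E14, 10.5 in Suz12GT, 1.2 in Suz12delta and 0.578 in Eednull cells. Presomitic mesoderm, where Dll1 and Dll3 drive a segmentation clock, was represented by 8 genes that summed to 2.57 to 10.7 FPKM at day 5, with Tbx6 and Msgn1 listed at 0 in all 4 day 5 libraries. Tcf15 was at 0.924 to 1.92 FPKM and T at 0.0153 to 0.944 FPKM at day 5. Meox1 was at 0.435 FPKM in E14, 3.74 in Suz12GT, 7.86 in Suz12delta and 8.51 in Eednull day 5 cells. Against E14 day 5 cells 2 of 4 of these genes were higher in Suz12GT, 2 of 5 in Suz12delta and 3 of 4 in Eednull cells. None was lower. Of all genes 16.8%, 26.6% and 21.6% were higher.

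Each member was compared by Pearson correlation of log2 FPKM plus 0.1 over the 8 libraries with 16079 other genes. These genes reached 1 FPKM in some library and were above 0 in all 8. Genes listed at 0 in any library, Neurog1, Neurog2 and Neurod4 among them, were thus not searched and could be as alike. The result is a description that rests largely on the contrast of E14 and Suz12GT day 5 libraries with the others. The searched genes most like each member are named. For Neurog2 these were Nhlh1 (r = 0.993), Nhlh2 (0.992) and Wscd2 (0.990). For Neurod4 they were 3110035E14Rik (0.998), Scrt2 (0.997) and Nhlh1 (0.996), and for Neurod1 they were Elavl2 (0.990), Galnt9 (0.988) and Sox2ot (0.986). Nhlh1 and Nhlh2 are bHLH factors of newborn neurons, and Nhlh1 was named for both Neurog2 and Neurod4. Hes5 was most like Acly, Enox2 and Rnf165 (0.972, 0.972 and 0.964), Dll3 like Gm2694, SCARNA11 and Mfng (0.987, 0.986 and 0.974), and Dll1 like Vbp1, Galnt9 and Sox21 (0.957, 0.948 and 0.944). Neurog1 was most like Irx3, Mxra7 and Tmsb4x (0.962, 0.959 and 0.956). Hes1 was most like S100a6, Ahnak2 and Gss (0.974, 0.974 and 0.970), of which S100a6 was at 26.6 FPKM in E14 ESCs and 89.4 in Suz12delta ESCs, and at 0.341 in E14, 3.34 in Suz12GT, 13.4 in Suz12delta and 8.48 in Eednull day 5 cells.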

How the data were processed

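RNA-seq values of 8 libraries, 1 per condition, were used. The table that the authors deposited gives FPKM for each gene. Per the labels and the methods, reads were aligned by Tophat 1.3.2 running Bowtie 0.12.7, and levels came from Cufflinks 1.2.1 and Cuffdiff, with sequence bias and multiply mapped reads corrected, on NCBI build 37 with a gene set derived from Ensembl. Reads that fit similar genes were thereby split among them. Read counts, depth and the strand setting are not given in the sources used here, so no interval for a single value could be had. All 8 value columns were assigned from their names and the labels.

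Log2 ratios were computed with a pseudocount of 0.1 FPKM for genes that reached 0.1 FPKM in either library, without rescaling, and a ratio of 1 in size was called a 2-fold change. The pseudocount understates the change of low genes. The calculation was tested on simulated data. Named genes were the 9 members, and of each other list the 2 genes with the highest FPKM in any library and the 2 with the largest ratio in E14 day 5 against E14 ESCs at 1 FPKM or more. Further genes (Gadd45g, Ebf1, Ebf2, Tcf4, Pax6, Sox3, Chat, Meox1, Lum, Tubb3, Pdx1, Pax4, Tbx6, Msgn1 and Cerkl among them) were named after their values were seen. For each member at 1 FPKM or more in any library, the 3 genes most like it were named. The members, lists and 2-fold rule were chosen with earlier results of these data known. Of a symbol with several rows (Ebf1), the row with the higher mean was used, and Map2, Sox1 and Slc18a3 were not analysed here. Coordinates are from GENCODE vM1, which held 36104 of the 36808 identifiers. Alternatives were pseudocounts of 1 and 0.01, dropping the minimum or raising it to 1 FPKM, scaling to the same 75th percentile or by the median ratio over 17842 genes above 0 in every library, and CJ7 as the wild-type ESC. Python 3.11.15, NumPy 2.4.6, pandas 2.3.3 and matplotlib 3.10.9 were used.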

Additional observations from a re-analysis of the deposited data

Results flagged for a closer look

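Genes that rose over wild-type differentiation and fell over that of a mutant line were Neurog1, Dll3 and Neurod1. The log2 ratio of day 5 cells to ESCs for Neurog1 was 6.10 in E14, -2.60 in Suz12delta and -2.19 in Eednull cells. That of Dll3 was 4.13 in E14, -1.31 in Suz12delta and -3.44 in Eednull cells. That of Neurod1 was 2.82 in E14 and -1.68 in Eednull cells. Each line had 1 library at each time, and the difference between lines was not tested.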

How the results depend on the processing

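The counts of genes higher and lower in Suz12delta and in Eednull day 5 cells against E14 day 5 cells, and of genes higher over E14 differentiation, stayed within 1.5 times their value under every alternative that was run, with 91 counts within that limit in all and 23 beyond it. With a pseudocount of 1, which shrinks the ratios of low genes, 0 genes were lower in Suz12delta and 2 in Eednull cells over differentiation, 0 were higher in Suz12GT against E14 day 5 cells, and in ESCs 0 were higher and 2 lower in Suz12delta, 0 higher and 1 lower in Eednull and 1 lower in CJ7. With a pseudocount of 0.01, 2 genes were lower over E14 differentiation and 1 was higher over that of Suz12delta cells. With a minimum of 1 FPKM, which leaves fewer genes, 1 was lower in Suz12delta and 2 in Eednull cells over differentiation, 1 was higher in Suz12GT day 5 cells, 0 were higher in Suz12delta and in Eednull ESCs, and 1 was lower in CJ7. With either scaling 1 gene was higher in Suz12GT day 5 cells and 1 lower in CJ7 ESCs. With CJ7 as the wild-type ESC, 2 genes were lower over E14 differentiation, 2 were higher in Suz12delta ESCs, 0 were lower in Eednull ESCs, and Dll1 in Eednull ESCs went from -1.89 to 0.19, the only change of sign of a ratio past 2-fold. The cause was not tested. Against CJ7, Dll1 rose over differentiation by 2.68.

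No paired analysis was possible because each condition had 1 library. Depth is unknown, so values below 0.1 FPKM cannot be told from 0 with a stated error. Neurog3, Neurod4 and the neurogenins in ESCs, and all proneural genes in Suz12delta and Eednull day 5 cells, are at or near such values, and their ratios show size only roughly.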
